A study of Mus musculus with 18 samples.

Results

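Transcripts of 9 costimulatory and inhibitory receptors (Icos, Cd27, Cd28, Ctla4, Pdcd1, Tnfrsf4, Tnfrsf9, Tnfrsf18 and Lilrb4a) were counted in libraries of ILC2 (group 2 innate lymphoid cells). The members were picked by gene symbol, and all 9 are among the 24781 entries of the count table. The 18 libraries formed 6 groups of 3, with genotypes spelled CD45 KO x Rag2 KO (here CD45 KO) and Rag2 KO (here control). Each genotype gave lung ILC2, mature ILC2 from bone marrow and immature ILC2 from bone marrow, which the labels also call ILC2P. The controls are not wild type at Rag2, although their titles carry the letters WT: every mouse lacked Rag2 and with it T and B cells. The sources used here do not give the CD45 allele, the ages of the mice or the number of mice behind a library. Replicates may therefore be separate sorts of the same mice, and p-values measure only the spread between these libraries. The cells were untreated as far as the labels say. Library totals were 68077 to 122250 counts, so that a gene at 0 counts in 1 library may have a level of up to 25.3 to 44.7 CPM (counts scaled to the library total), the value of 3 counts there.

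Costimulatory receptors add a second signal to a lymphocyte that has been triggered through another receptor, and inhibitory receptors take it away. Icos, Cd28, Ctla4 and Pdcd1 encode receptors of the immunoglobulin superfamily that share the CD28 fold and signal through phosphoinositide 3-kinase or, for the inhibitory ones, through phosphatases. Cd27, Tnfrsf4 (OX40), Tnfrsf9 (CD137) and Tnfrsf18 (GITR) belong to the tumour necrosis factor receptor superfamily and recruit TRAF adaptors. Lilrb4a encodes an inhibitory immunoglobulin-like receptor of mouse leukocytes. ILC2 have no rearranged antigen receptor, and such receptors are among the known modifiers of their survival and cytokine output. CD45, encoded by Ptprc, is the receptor tyrosine phosphatase that acts on Src-family kinases.

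Ptprc fell in CD45 KO ILC2 of all 3 populations, by 1.86 ± 0.27 (log2, ± SE) in lung, 1.68 ± 0.29 in mature and 2.01 ± 0.31 in immature ILC2 (edgeR quasi-likelihood test, adjusted p = 6.28e-07, 0.00015 and 7.9e-06). Between 30 and 42 Ptprc counts per group remained in CD45 KO libraries, against 104 to 172 in controls, and whether the counted part of the transcript lies in the deleted part is not given. The library labelled mature CD45 KO replicate 1 stood apart: it had 238 CPM of Ptprc, and it differed from the other 2 libraries of its group with a chi-square of 4.19 and 4.59 per degree of freedom, where all other pairs of replicates lay between 1.14 and 2.28. The summed ILC2 markers (14 genes, Gata3 and Il1rl1 among them) stood at 12330 to 14670 CPM in lung libraries and at 6228 to 8942 CPM in marrow libraries. In each genotype the same test called 10 of them higher and 1 lower in lung (28.1% and 31.1% of all genes called). Among the 14, Areg, Il5 and Il13 passed the filter on low counts through their lung libraries alone. This favoured calls of higher in lung, so the count of 10 cannot be set against these shares. In controls Areg averaged 1259 CPM in lung against 4.97 in mature and 11.2 in immature ILC2. Id2 averaged 539 against 1250 and 1311 CPM, and Il1rl1 1250 against 1538 and 1502 CPM. Whether the sum follows the share of ILC2 was not tested. Of the T cell markers, Cd4, Cd8a, Cd8b1, Cd5 and Foxp3 were at 0 counts in every group. Lat had counts in every group and Cd3g mostly in lung (both given below). Cd3e had 2 counts in control lung and Cd3d had 1 count in mature CD45 KO ILC2, with none elsewhere. All 6 lung libraries had 52 to 105 counts of Xist and 0 counts of 4 genes of the Y chromosome, while all 12 marrow libraries had 0 counts of Xist and 10 to 32 summed counts of those 4 genes. Tissue and the sex of the mice therefore cannot be told apart in any comparison of lung with marrow, whereas CD45 KO and control libraries of a population were alike in these genes.

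Of the 9 members, 5 had enough counts to be tested (Icos, Cd27, Pdcd1, Tnfrsf18 and Lilrb4a), among 1916 tested genes. Pdcd1 passed the filter through its lung libraries alone, with 10 to 31 counts per lung library and 0 to 2 per marrow library. Its calls for lung against marrow were thus favoured by the filter and add no separate support. Cd27 passed the filter only with the counts of its CD45 KO lung libraries, so a call of higher Cd27 there was favoured too. Cd28, Ctla4, Tnfrsf4 and Tnfrsf9 fell below the filter on low counts and are given as counts. Levels are CPM on library sizes scaled with TMM factors and are compared here within a gene only. The genes lie in a few clusters of the mouse genome (mm10, GENCODE M21). Cd28 (chr1:60716800-60773359), Ctla4 (chr1:60887000-60915832) and Icos (chr1:60977927-61000320) follow each other on the plus strand, with gaps of 113640 and 62094 bases between them. Tnfrsf4 (chr4:156013843-156016612) and Tnfrsf18 (chr4:156026164-156028895) are 9551 bases apart on the plus strand of chromosome 4, which also holds Tnfrsf9 (chr4:150914562-150946102, plus strand). Pdcd1 lies on the minus strand at chr1:94038305-94052553, Cd27 on the minus strand at chr6:125232622-125237010, and Lilrb4a on the plus strand at chr10:51490956-51496611.

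**Figure D1:**
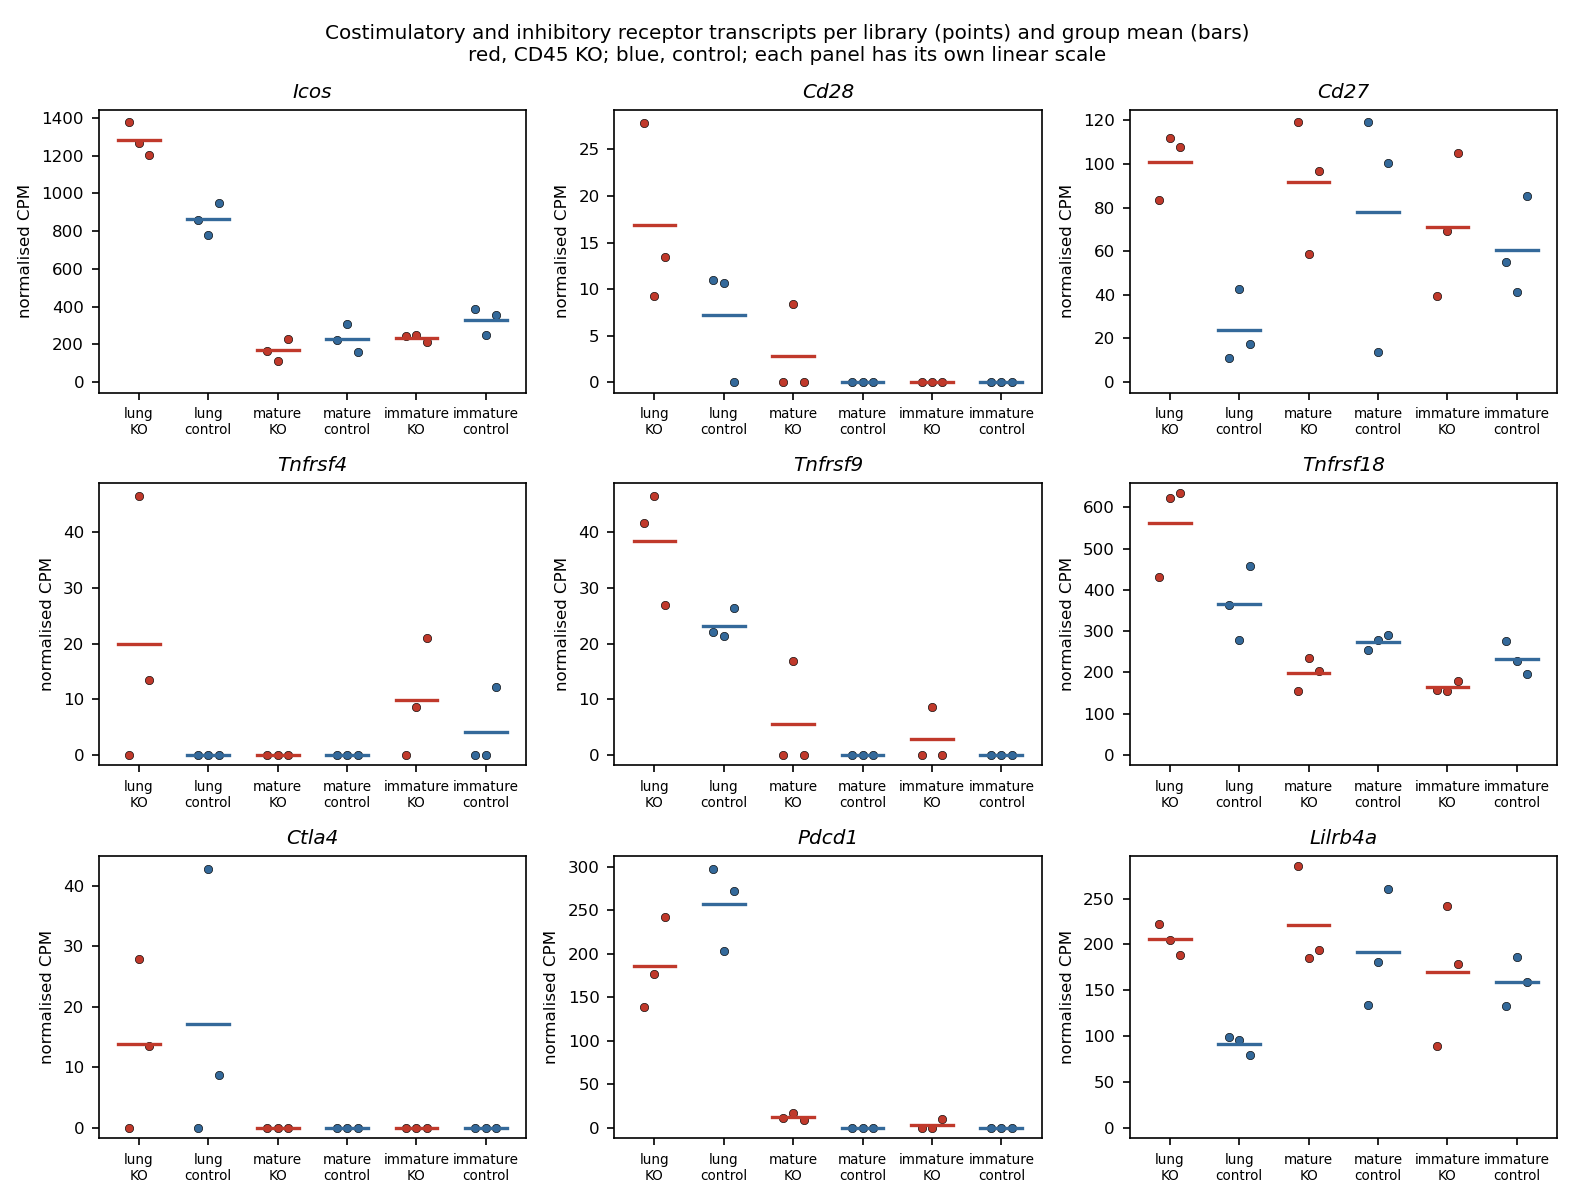
Levels of the 9 members in the 18 libraries. The vertical axis is CPM on TMM-scaled library sizes, each point is 1 library, bars are means of 3 libraries, red is CD45 KO and blue is control. All 6 lung libraries lie above all 12 marrow libraries for Icos and Pdcd1, while Lilrb4a has its lowest mean, 91.5 CPM, in control lung.

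Icos, the receptor for ICOS ligand, was the member with the clearest separation of groups. Its level was 1377, 1266 and 1201 CPM in CD45 KO lung ILC2, against 860, 781 and 950 CPM in control lung ILC2. In mature ILC2 it was 167, 110 and 229 CPM in CD45 KO libraries, against 224, 305 and 160 CPM in controls, and in immature ILC2 it was 246, 251 and 210 CPM in CD45 KO libraries, against 387, 248 and 354 CPM in controls. Lung libraries were all higher than marrow libraries, CD45 KO lung libraries were all higher than control lung libraries, and the genotypes overlapped in both marrow stages. In the order of means, CD45 KO lung came first and control lung came next, each clear of its neighbour, and the 4 marrow groups overlapped with their neighbours in that order. These values rest on 73 to 136 counts per lung library and 13 to 35 counts per marrow library.

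Tnfrsf18 encodes GITR, a receptor that costimulates T cells and is found on ILC2. It stood at 431, 624 and 634 CPM in CD45 KO lung ILC2, against 364, 278 and 457 CPM in control lung ILC2. Mature ILC2 had 155, 236 and 202 CPM in CD45 KO libraries, against 253, 278 and 291 CPM in controls, and immature ILC2 had 158, 156 and 179 CPM in CD45 KO libraries, against 276, 227 and 195 CPM in controls. CD45 KO libraries were all lower than control libraries in mature and in immature ILC2, while in lung the genotypes overlapped and the CD45 KO mean was the higher one, 563 ± 114 CPM against 366 ± 89.6 CPM (SD, n = 3 each). In the order of means (lung CD45 KO, lung control, mature control, immature control, mature CD45 KO, immature CD45 KO) every group overlapped with the next.

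Pdcd1, the inhibitory receptor of programmed death ligands, was counted almost wholly in lung. CD45 KO lung ILC2 had 10, 19 and 18 counts (139, 177 and 243 CPM), against 27, 19 and 31 counts (298, 203 and 273 CPM) in control lung ILC2. CD45 KO marrow libraries had 1, 2 and 1 counts in mature and 0, 0 and 1 counts in immature ILC2, against 0 counts in all 6 control marrow libraries. The genotypes overlapped in lung, and every lung library was above every marrow library.

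Cd27, the receptor for CD70, was counted in all 18 libraries at low level. CD45 KO lung ILC2 had 6, 12 and 8 counts (83.4, 112 and 108 CPM), against 1, 4 and 2 counts (11.0, 42.8 and 17.6 CPM) in control lung ILC2. In mature ILC2 the level was 119, 59.0 and 96.8 CPM in CD45 KO libraries, against 119, 13.9 and 100.3 CPM in controls, and in immature ILC2 it was 39.4, 69.2 and 105 CPM in CD45 KO libraries, against 55.3, 41.4 and 85.4 CPM in controls. Only the lung genotypes were free of overlap, and control lung had the lowest mean of the 6 groups, 23.8 ± 16.8 CPM (SD, n = 3). The gene lies within Vamp1 on the opposite strand, over all of its 4389 bases, and since no source used here says that reads were counted by strand, reads of both genes may be mixed. The same holds for Tnfrsf18, whose 2732 bases lie within the antisense gene Gm16008, and for Tnfrsf9, which Camta1 overlaps on the opposite strand over 28781 bases.

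Lilrb4a, the inhibitory receptor, had 223, 205 and 189 CPM in CD45 KO lung ILC2, against 99.2, 96.3 and 79.1 CPM in control lung ILC2. In mature ILC2 it had 286, 185 and 194 CPM in CD45 KO libraries, against 134, 180 and 261 CPM in controls, and in immature ILC2 88.7, 242 and 179 CPM in CD45 KO libraries, against 133, 186 and 159 CPM in controls. Control lung had the lowest mean of the 6 groups and did not overlap with the next in order, immature control, while the other 5 groups overlapped with their neighbours. It was not clear of all groups, since immature CD45 KO replicate 1, at 88.7 CPM, lay within the control lung range. Each control lung library rests on 9 counts and the CD45 KO lung libraries on 16, 22 and 14 counts.

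The other 4 members were near the limit of detection. Tnfrsf9, the costimulatory receptor CD137, had 3, 5 and 2 counts in CD45 KO lung ILC2, against 2, 2 and 3 counts in control lung ILC2. CD45 KO marrow libraries had 0, 2 and 0 counts of it in mature and 0, 1 and 0 counts in immature ILC2, against 0 counts in all 6 control marrow libraries. Tnfrsf9 was thus found in all 6 lung libraries and in 2 of 12 marrow libraries. Ctla4, which binds the same ligands as CD28 and inhibits, had 0, 3 and 1 counts in CD45 KO lung ILC2, against 0, 4 and 1 counts in control lung ILC2, and 0 counts in all 12 marrow libraries. Cd28 had 2, 1 and 1 counts in CD45 KO lung ILC2, against 1, 1 and 0 counts in control lung ILC2, and 1 count in all marrow libraries together. Tnfrsf4, which encodes OX40, had 0, 5 and 1 counts in CD45 KO lung ILC2, against 0 counts in all 3 control lung libraries; in immature ILC2 it had 0, 1 and 2 counts in CD45 KO libraries, against 0, 0 and 1 counts in controls, and mature ILC2 had none. Of the 6 Tnfrsf4 counts in CD45 KO lung, 5 came from replicate 2.

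The first question of the design was whether the loss of CD45 changed these receptors within a population. In lung, 3 of the 5 tested members passed, all higher in CD45 KO ILC2, beside 48 of all 1916 tested genes (2.51% called). Icos was higher by 0.56 ± 0.15 (log2, ± SE; adjusted p = 0.0270 by edgeR's quasi-likelihood test, adjusted over all tested genes by Benjamini and Hochberg's method, as for every adjusted p here). Cd27 was higher by 2.06 ± 0.60 (adjusted p = 0.0445) and Lilrb4a by 1.17 ± 0.35 (adjusted p = 0.0467). Cd27 was tested only because of its counts in CD45 KO lung, so its call was favoured by the filter and adds no separate support. Tnfrsf18 did not pass, with a log2 difference of 0.62 ± 0.20 (adjusted p = 0.0861), nor did Pdcd1, with -0.47 ± 0.33 (adjusted p = 0.564). The median log2 difference was 0.62 over the 5 members and 0.01 over all tested genes.

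The lung calls were close to the threshold, and single libraries decided them. The Icos call was lost when replicate 1 or 2 of either genotype was left out (highest adjusted p = 0.149), the Cd27 call when control replicate 1, control replicate 3 or any 1 of the CD45 KO libraries was left out (highest adjusted p = 0.193), and the Lilrb4a call without any 1 of the 6 lung libraries (highest adjusted p = 0.212). Their log2 differences stayed within 0.49 to 0.64 for Icos, 1.77 to 2.70 for Cd27 and 1.06 to 1.23 for Lilrb4a when 1 lung library was left out. In lung CD45 KO replicate 1, and in no other lung library, monocyte and macrophage markers reached 362 CPM in sum (27.0 to 362 CPM in CD45 KO lung, 22.0 to 53.5 CPM in control lung; 7 of 10 markers had counts in CD45 KO lung and 1 of 10 in control lung, with Csf1r and Itgam at 0). The part of these markers in the results was not tested beyond leaving that library out, and without it the log2 difference was 0.51 for Icos, 2.17 for Cd27 and 1.12 for Lilrb4a.

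In marrow, edgeR called 0 of the 5 members in mature ILC2 (0.261% of all genes called) and 0 of the 5 in immature ILC2 (1.67% called). At an unadjusted p under 0.05 there was 1 member in mature ILC2, Pdcd1, and 0 in immature ILC2, and DESeq2 also called 0 in both, with no adjusted p given for Cd27 and Pdcd1 in immature ILC2. The Pdcd1 value rests on 4 counts in mature CD45 KO libraries against 0 in controls (adjusted p = 0.519). That is 1.01-fold higher against a floor of 3 counts over the control group, with the 4 counts taken as exact. Icos had log2 differences of -0.41 ± 0.29 in mature and -0.47 ± 0.24 in immature ILC2 (adjusted p = 0.705 and 0.422). Tnfrsf18 had -0.45 ± 0.26 and -0.51 ± 0.28 (adjusted p = 0.643 and 0.450). Cd27 had 0.17 ± 0.49 and 0.24 ± 0.53 (adjusted p = 0.968 and 0.917), and Lilrb4a had 0.11 ± 0.29 and 0.11 ± 0.31 (adjusted p = 0.963 and 0.936). The 95% intervals were -0.97 to 0.16 and -0.94 to 0.01 for Icos and -0.96 to 0.06 and -1.06 to 0.03 for Tnfrsf18.

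In mature control replicate 1 neutrophil markers reached 2384 CPM in sum. The range was 25.3 to 70.4 CPM in mature CD45 KO libraries and 90.2 to 2384 CPM in mature controls, and 5 and 6 of the 7 markers had counts there, with Ly6g at 0 in both. With that library left out, the mature log2 difference was -0.41 for Icos and -0.50 for Tnfrsf18, and the part of these markers was not tested further.

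**Figure D2:**
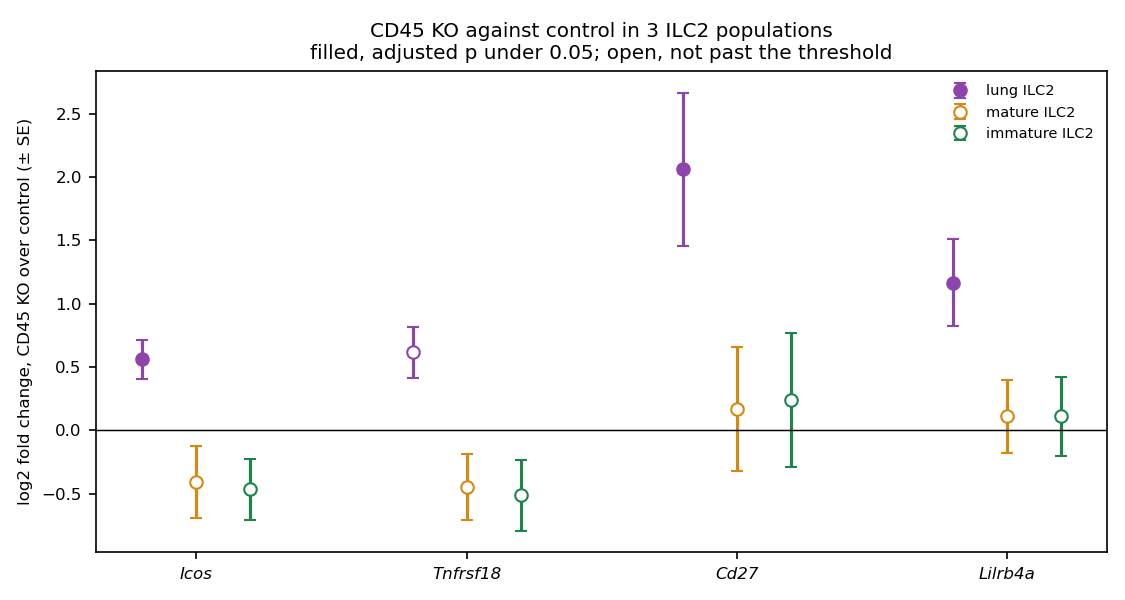
Log2 difference between CD45 KO and control ILC2 (vertical axis) for 4 tested members in lung, mature and immature ILC2. Points are estimates of the edgeR fit, bars are 1 SE, and filled points passed the threshold of 0.05 on the adjusted p. Icos and Tnfrsf18 lie above 0 in lung (0.56 and 0.62) and below 0 in both marrow stages (-0.41 to -0.51).

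Icos and Tnfrsf18 were therefore compared between tissues by the contrast of the CD45 effects, lung minus the mean of the marrow stages. This contrast passed for 2 of the 5 members, with 24 of all tested genes called (1.25%). The difference of effects was 0.998 ± 0.24 for Icos (adjusted p = 0.0158) and 1.10 ± 0.28 for Tnfrsf18 (adjusted p = 0.0202). It did not pass for Cd27 (1.86 ± 0.71, adjusted p = 0.194), Lilrb4a (1.06 ± 0.41, adjusted p = 0.199) or Pdcd1 (adjusted p = 0.301). Between mature and immature ILC2, edgeR called a different CD45 effect in 0 of 1916 genes (0% called, 94 at an unadjusted p under 0.05, 0 by DESeq2). The 4 tested members other than Pdcd1 had differences of effects between -0.07 and 0.06.

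Both differences of effects were sensitive to single libraries. The Icos difference missed the threshold without mature control replicate 2, mature CD45 KO replicate 2, immature control replicate 1, lung control replicate 2 or lung CD45 KO replicate 1 (highest adjusted p = 0.0684), and that of Tnfrsf18 without immature control replicate 1, lung control replicate 2 or lung CD45 KO replicate 2 or 3 (highest adjusted p = 0.121). With mature CD45 KO replicate 1, the library that stood apart, left out, they were 0.99 for Icos (adjusted p = 0.0124) and 1.04 for Tnfrsf18 (adjusted p = 0.0251).

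The second question was how lung ILC2 differed from marrow ILC2. In CD45 KO mice, lung was set against the mean of both marrow stages and 3 of the 5 members passed, all higher in lung, where 28.1% of all tested genes were called. Pdcd1, which was tested only because of its lung counts, is among these 3. Icos was higher in lung by 2.67 ± 0.16 (log2, adjusted p = 2.07e-26), Pdcd1 by 4.55 ± 0.52 (adjusted p = 5.58e-12) and Tnfrsf18 by 1.64 ± 0.19 (adjusted p = 1.05e-11). Cd27 (0.36 ± 0.41, adjusted p = 0.569) and Lilrb4a (0.09 ± 0.26, adjusted p = 0.848) did not pass. The median log2 difference was 1.64 over the 5 members and -0.03 over all tested genes.

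In control mice all 5 tested members passed, 3 higher and 2 lower in lung, where 31.1% of all tested genes were called. Pdcd1, which was tested only because of its lung counts, is among the 3 higher ones. Icos was higher in lung by 1.68 ± 0.17 (adjusted p = 1.36e-14) and Tnfrsf18 by 0.54 ± 0.20 (adjusted p = 0.0282). Pdcd1 had 77 counts in control lung and 0 in control marrow (adjusted p = 1.37e-16). That is 43.8-fold higher in lung against a floor of 3 counts over the marrow group, with the lung counts taken as exact. Cd27 fell by 1.495 ± 0.58 in lung on the log2 scale (adjusted p = 0.0384) and Lilrb4a fell by 0.97 ± 0.31 (adjusted p = 0.0110). Neutrophil markers were at 0 counts in control lung. With mature control replicate 1 left out, the Cd27 call was lost (log2 -1.34, adjusted p = 0.0881) and those of Tnfrsf18 and Lilrb4a held (adjusted p = 0.0481 and 0.00600). In the summed counts, Pdcd1 had 47 counts in CD45 KO lung and 5 in CD45 KO marrow, a ratio of CPM of 23.3 (95% exact interval 9.31 to 75.1, for counting error only).

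**Figure D3:**
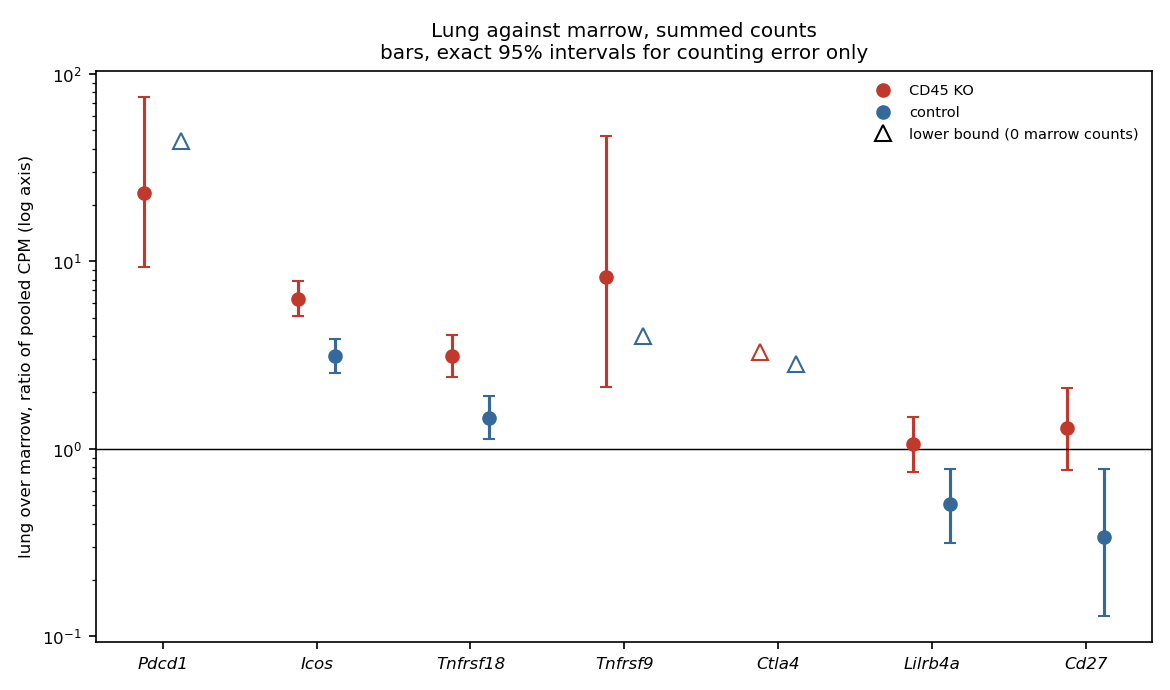
Ratio of lung over marrow CPM, from counts summed over the 3 lung and 6 marrow libraries of a genotype, on a log axis, for 7 members in CD45 KO (red) and control (blue) mice. Bars are exact 95% intervals for counting error only. Triangles, named lower bound in the legend, are ratios to a floor of 3 counts where marrow had 0 counts, with lung counts taken as exact. Icos and Tnfrsf18 lie above 1 in both genotypes (6.33 and 3.13 in CD45 KO mice, 3.13 and 1.47 in controls), and Lilrb4a and Cd27 lie below 1 in controls (0.506 and 0.341).

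Of the T cell markers, Lat was at 26 to 37 counts in every group, and Cd3g, with 9 counts in CD45 KO lung, 12 in control lung, 5 in mature CD45 KO and 0 in the other groups, was counted mostly in lung. The range of the summed list was 111 to 193 CPM in lung and 41.6 to 238 CPM in marrow, and its part in the results was not tested. Icos and Pdcd1 were called higher in lung in both genotypes under every alternative that was run. Pdcd1 was tested only because of its lung counts, so for Pdcd1 this adds no separate support. In controls, the Tnfrsf18 call was lost without immature control replicate 3 or lung control replicate 1 or 3 (highest adjusted p = 0.330), the Cd27 call without any 1 of 5 libraries (highest adjusted p = 0.160), and the Lilrb4a call without mature control replicate 3 or lung control replicate 3 (highest adjusted p = 0.0727).

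Members below the filter were looked at in a fit of all 12945 genes with a count. There Tnfrsf9 was called higher in lung in CD45 KO mice (adjusted p = 0.0266; 4.8% of those genes called) and in controls (adjusted p = 0.0150; 5.28% called). Its summed counts were 10 in CD45 KO lung and 3 in CD45 KO marrow, a ratio of CPM of 8.27 (95% exact interval 2.13 to 46.7). In controls they were 7 in lung and 0 in marrow, 3.98-fold higher in lung against a floor of 3 marrow counts. Ctla4 was not called (adjusted p = 0.121 in CD45 KO mice and 0.103 in controls). Its 4 and 5 lung counts were 3.31-fold and 2.84-fold above the floor of 3 marrow counts, with the lung counts taken as exact. Cd28 was not called either (adjusted p = 0.289 and 0.489). Tnfrsf4 had 6 counts in CD45 KO lung against 0 in control lung, 2.35-fold higher against a floor of 3 control counts. It did not pass (adjusted p = 0.693, unadjusted p = 0.0111, 0.17% of those genes called). This fit also did not call Icos, Cd27 or Lilrb4a in lung (adjusted p = 0.198, 0.103 and 0.221), nor Cd27 and Lilrb4a in lung against marrow of controls (adjusted p = 0.161 and 0.118).

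Stage within the marrow was the third comparison. edgeR called 0 of the 5 members between mature and immature ILC2 in CD45 KO mice (0.678% of all genes called) and 0 in controls (0.0522% called), and DESeq2 called 0 in both. At an unadjusted p under 0.05 there were 0 members in CD45 KO mice and 1, Icos, in controls, with a log2 difference of -0.55 ± 0.26 (adjusted p = 0.859). For Icos, Cd27, Tnfrsf18 and Lilrb4a, the log2 differences between mature and immature ILC2 ran from -0.49 to 0.33 in CD45 KO mice and from -0.55 to 0.40 in controls. Pdcd1, with 4 counts in mature and 1 in immature CD45 KO libraries, had a log2 difference of 1.62 ± 1.22 (adjusted p = 0.801), and it had 0 counts at both stages in controls.

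Promoter windows were read for the members that were higher in lung and for Cd27, to show which known lymphocyte response motifs they hold. RefSeq windows (GRCm38.p6, the assembly of mm10) of 300 bases around a transcription start were matched by symbol for 6 of the 9 members, 7 windows in all, and none was matched for Icos, Cd28 or Lilrb4a. Capitals mark motif matches on either strand, 5′ to 3′ along the strand of the gene. The window of Pdcd1 (chr1:94052504-94052803, minus strand) held none of the 8 motifs searched. That of Tnfrsf18 (chr4:156026072-156026371, plus strand) held 1 match, to the NFAT motif. The window of Tnfrsf9 shown here, 1 of 2, is chr4:150927749-150928048 (plus strand), and that of Cd27 is chr6:125236978-125237277 (minus strand).
Pdcd1: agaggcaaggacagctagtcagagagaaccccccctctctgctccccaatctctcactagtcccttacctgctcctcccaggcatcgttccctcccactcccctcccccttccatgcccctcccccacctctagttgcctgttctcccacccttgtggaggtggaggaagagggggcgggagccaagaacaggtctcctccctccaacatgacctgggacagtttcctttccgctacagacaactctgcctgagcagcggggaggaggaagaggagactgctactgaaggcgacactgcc
Tnfrsf18: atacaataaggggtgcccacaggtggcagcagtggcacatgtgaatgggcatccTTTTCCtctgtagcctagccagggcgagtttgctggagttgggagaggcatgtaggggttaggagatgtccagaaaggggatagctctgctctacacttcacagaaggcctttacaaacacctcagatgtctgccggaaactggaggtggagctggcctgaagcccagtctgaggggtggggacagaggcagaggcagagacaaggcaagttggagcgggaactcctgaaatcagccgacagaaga
Tnfrsf9: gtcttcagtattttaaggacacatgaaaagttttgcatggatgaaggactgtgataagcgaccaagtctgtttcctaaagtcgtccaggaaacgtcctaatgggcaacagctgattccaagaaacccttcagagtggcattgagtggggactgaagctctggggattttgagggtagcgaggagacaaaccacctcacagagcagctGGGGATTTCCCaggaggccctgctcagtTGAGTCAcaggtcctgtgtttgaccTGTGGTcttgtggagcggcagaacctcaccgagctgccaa
Cd27: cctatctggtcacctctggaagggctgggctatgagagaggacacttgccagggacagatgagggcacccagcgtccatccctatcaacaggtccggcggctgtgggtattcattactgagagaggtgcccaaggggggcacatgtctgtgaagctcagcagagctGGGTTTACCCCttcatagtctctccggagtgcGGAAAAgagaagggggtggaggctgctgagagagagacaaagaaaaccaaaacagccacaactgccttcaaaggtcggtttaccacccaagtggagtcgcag

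The motifs were searched on both strands as plain letters, and a match is a description of the letters, not a binding site. NFAT (GGAAAA) matched in the windows of Tnfrsf18, starting 196 bases before the start base on the other strand, and Cd27, 52 bases before it, and in 2 windows not shown, on the other strand of Ctla4 and of the other Tnfrsf9 window, 145 and 138 bases before the start base. AP-1 (TGANTCA) matched in the Tnfrsf9 window 15 bases before the start base, an NF-kB motif (GGG and CC with any 5 bases between them) 43 bases before it and RUNX (TGTGGT) 11 bases after it. The Cd27 window also held the NF-kB motif, 84 bases before the start base, and in both genes overlapping matches of that motif 1 base further on were counted within the same capitals. CRE (TGACGTCA), NR4A (AAAGGTCA), EGR (GCGNGGGCG) and the motif of GATA factors (AGATAA) matched in none of the 7 windows. Over 32851 mouse windows of the same length, 23.4% held NFAT, 7.81% AP-1, 50.8% NF-kB, 16.8% RUNX, 1.79% CRE, 1.51% NR4A, 5.55% EGR and 11.2% GATA, so that the NF-kB and NFAT matches are common ones.

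The Lilrb4a result has to be read beside Lilr4b, a near-identical gene that ends 4252 bases before it (chr10:51480632-51486703, plus strand) and encodes a relative described as lacking the inhibitory tyrosine motifs. The start of both coding sequences is shown, from GENCODE M21 transcripts, with the bases that differ in capitals.
Lilrb4a: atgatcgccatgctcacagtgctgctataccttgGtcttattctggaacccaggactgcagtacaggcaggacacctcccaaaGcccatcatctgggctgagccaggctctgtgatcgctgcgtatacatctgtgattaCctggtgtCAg
Lilr4b: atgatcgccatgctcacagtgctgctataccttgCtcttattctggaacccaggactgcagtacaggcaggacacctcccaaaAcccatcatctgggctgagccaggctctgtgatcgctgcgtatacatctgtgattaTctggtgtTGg

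Of these 150 bases 5 differed, and over the whole coding sequences 871 of 907 aligned bases (96%) were the same. Of the 50-base windows of the Lilrb4a transcript, 368 of 1332 (27.6%) also occur in Lilr4b, and 192 of 451 (42.6%) in the last 500 bases, so that the authors' counting could split or drop reads between the genes. The annotation also puts the protein-coding gene Gm49339 over both on the same strand and the antisense gene Gm40645 over Lilrb4a. Lilr4b had 111, 233 and 94.5 CPM in CD45 KO lung ILC2, against 165, 64.2 and 141 CPM in control lung ILC2, which overlap. Its log2 difference in lung was 0.32 ± 0.38 (adjusted p = 0.830). With the counts of both genes summed, an alternative chosen after the data were seen, the lung difference between CD45 KO and control was 0.74 (adjusted p = 0.117) and was no longer called. The difference between control lung and control marrow was -0.21 (adjusted p = 0.544) for the sum, and in CD45 KO mice the sum was higher in lung by 0.60 (adjusted p = 0.0330).

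**Figure D4:**
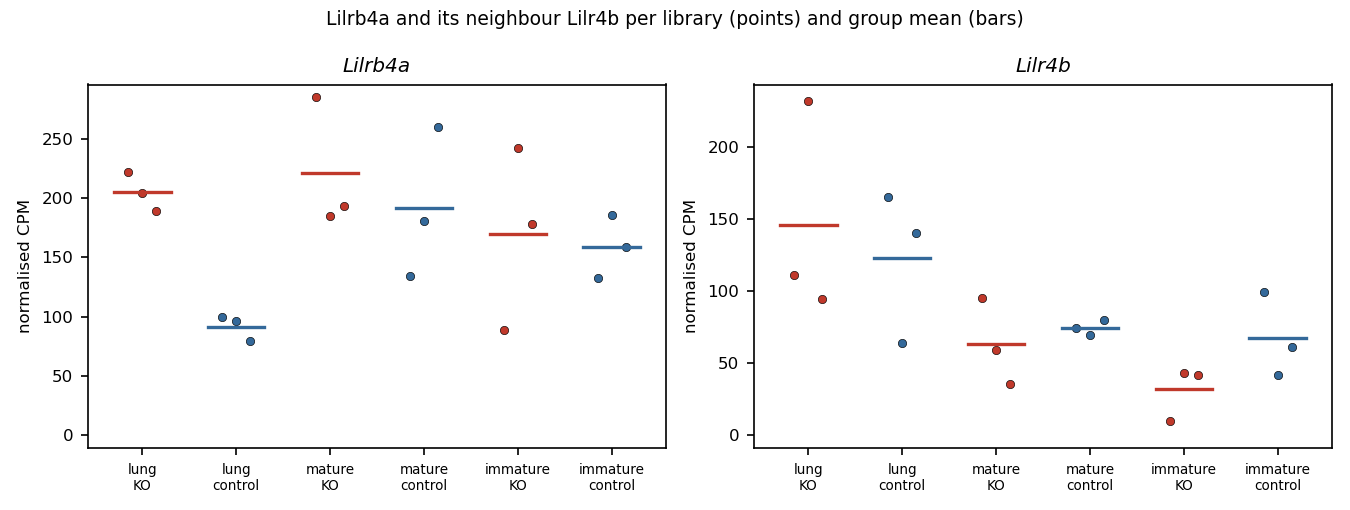
Levels of Lilrb4a and its near-identical neighbour Lilr4b in the 18 libraries. The vertical axis is CPM on TMM-scaled library sizes, each point is 1 library, bars are means of 3 libraries, red is CD45 KO and blue is control. The lung genotypes are apart for Lilrb4a (189 to 223 CPM in CD45 KO and 79.1 to 99.2 CPM in control libraries) and overlap for Lilr4b.

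Other genes of these pathways were taken from 3 lists. Of the 9 ligands of the members, 0 had enough counts to be tested. The ones with most counts were Icosl, with 20 counts in CD45 KO lung and 29 in control lung and 5 to 12 in the marrow groups, and Pdcd1lg2, with 20 in CD45 KO lung and 15 in control lung and 4 to 14 in the marrow groups. Cd80, Cd86 and Tnfsf18 were at 0 counts in all libraries.

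Of 16 adaptors, kinases and phosphatases that act downstream of such receptors, 9 were tested. For lung against marrow, 3 were higher and 1 lower in CD45 KO mice (4 called by DESeq2), where 28.1% of all tested genes were called, and 2 were higher and 2 lower in controls (3 called by DESeq2), where 31.1% were called. Traf1, an adaptor of tumour necrosis factor receptors, was higher in lung by 2.03 ± 0.40 in CD45 KO mice and by 1.20 ± 0.42 in controls (adjusted p = 1.6e-05 and 0.0203). It passed the filter on low counts through its lung libraries alone, with at most 72.4 CPM in a marrow library. Its calls were thus favoured by the filter and add no separate support. The Traf1 call in controls was lost without mature control replicate 2 or lung control replicate 1 or 3 (highest adjusted p = 0.110) and by DESeq2's Wald test (adjusted p = 0.0614). Pik3r1, a regulatory subunit of phosphoinositide 3-kinase, fell by 2.0 ± 0.28 in lung of CD45 KO mice and by 1.24 ± 0.28 in lung of controls on the log2 scale (adjusted p = 2.45e-09 and 0.000279), and Pik3cd, a catalytic subunit, fell by 1.09 ± 0.29 in controls (adjusted p = 0.00164). The list median was 0.02 in CD45 KO mice and -0.34 in controls, beside -0.03 in both over all tested genes.

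Between CD45 KO and control ILC2, edgeR called 0 of these 9 genes in lung, in mature and in immature ILC2 (2, 3 and 2 at an unadjusted p under 0.05). The shares called over all tested genes were 2.51%, 0.261% and 1.67%. DESeq2 called 0 of the 9 as well, giving no adjusted p for 8 of them in lung and 3 in immature ILC2. The list medians were -0.02 in lung, 0.05 in mature and -0.18 in immature ILC2. Birc3, an inhibitor of apoptosis that binds TRAF proteins, was the 1 gene of the list whose CD45 effect differed between lung and marrow, by 1.59 ± 0.40 (adjusted p = 0.0202). Its mean was 187 ± 33.7 CPM in CD45 KO lung, against 118 ± 23.7 CPM in control lung (SD, n = 3 each, as below). In mature ILC2 it was 93.4 ± 40.2 CPM in CD45 KO libraries, against 197.5 ± 9.43 CPM in controls, and in immature ILC2 87.7 ± 30.1 CPM, against 159 ± 34.8 CPM. As for Icos and Tnfrsf18, the estimate was positive in lung (0.68 ± 0.32, adjusted p = 0.301) and negative in mature and immature ILC2 (-1.0 ± 0.33 and -0.83 ± 0.35, adjusted p = 0.209 and 0.266). The difference was lost without any 1 of 5 libraries (highest adjusted p = 0.0980).

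**Figure D5:**
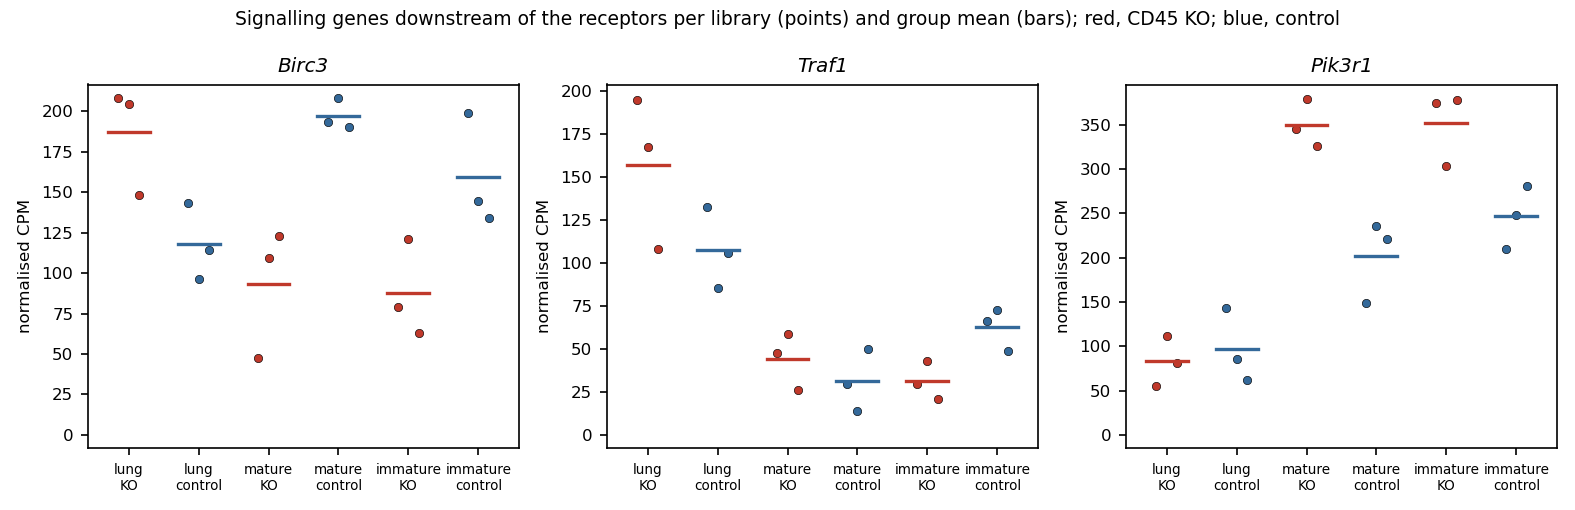
Levels of Birc3, Traf1 and Pik3r1 in the 18 libraries. The vertical axis is CPM on TMM-scaled library sizes, each point is 1 library, bars are means of 3 libraries, red is CD45 KO and blue is control. Birc3 is higher in CD45 KO than in control lung libraries (means 187 and 118 CPM) and lower in both marrow stages, and Pik3r1 has lower means in lung than in marrow in both genotypes.

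Of 31 other costimulatory and inhibitory receptors, 30 were in the table and 6 were tested. edgeR called none of the 6 between CD45 KO and control ILC2 in any population (1 at an unadjusted p under 0.05 in lung, 0 in mature and 0 in immature ILC2). Of all tested genes, 2.51% were called in lung, 0.261% in mature and 1.67% in immature ILC2, so few calls among 6 genes are the usual outcome. DESeq2 gave no adjusted p for all 6 in lung and for 3 in immature ILC2, and called 0 of the others. Klrg1, an inhibitory receptor that marks mature ILC2, was higher in mature than in immature ILC2 by 4.35 ± 0.56 in CD45 KO mice and by 3.56 ± 0.53 in controls (adjusted p = 2.6e-08 and 3.13e-06). In lung against marrow, Klrg1 was higher in CD45 KO mice by 1.32 ± 0.46 (adjusted p = 0.0228), and so was Lilr4b by 1.79 ± 0.40 (adjusted p = 0.000152). Marrow is here the mean of both stages on the log scale. Klrg1 averaged 122 CPM in CD45 KO lung, against 224 CPM in mature and 9.27 CPM in immature CD45 KO ILC2, so lung lay above the immature stage only. Lilr4b passed the filter through its lung libraries alone, so its call was favoured by the filter and adds no separate support. The Klrg1 call was lost by DESeq2's Wald test (adjusted p = 0.0604) and when immature CD45 KO replicate 1 or lung CD45 KO replicate 2 or 3 was left out (adjusted p up to 0.0883). The Lilr4b call was lost without lung CD45 KO replicate 2 (log2 difference 1.20, adjusted p = 0.0929). Cd48, a ligand and receptor of the SLAM family, fell by 1.83 ± 0.54 in control lung (adjusted p = 0.00553).

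The genes with the pattern most like each tested member were found by Pearson's r of log2 CPM over the 18 libraries, as a description only, since these libraries share the split into 6 lung and 12 marrow libraries. For Icos they were Csrnp1 (r = 0.97), Jund (0.966) and Lmna (0.963), and for Pdcd1 Nrp1 (0.983), Fos (0.982) and Xist (0.982), the last being the gene by which all lung libraries differed from all marrow libraries. For Tnfrsf18 they were Isy1 (0.888), Il10ra (0.885) and Per1 (0.881). The values were lower for the members that did not follow the tissue in both genotypes: Rpl24 (0.79), Rps10 (0.71) and Rps12 (0.688) for Cd27, and H2-D1 (0.77), H2-Q9 (0.715) and H2-Q7 (0.711) for Lilrb4a. Of these 15 genes 2 were called in CD45 KO against control lung, where 2.51% of all tested genes were called. The 15 were picked for likeness to members over these same libraries, so this count is not independent of the member calls. Jund was higher in CD45 KO lung (0.69 ± 0.15, adjusted p = 0.0015), as was Rps10 (0.52 ± 0.12, adjusted p = 0.0063). Fewer cells of a kind and less RNA per cell cannot be told apart in these sorted pools, for the members as for the genes like them.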

How the data were processed

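Per the labels' protocols, sorted ILC2 were lysed, their RNA was primed with barcoded oligo-dT, and the cDNA was tagged by template switching and amplified. The cell number is 200 per sample in one protocol and 100 per tube in another. The deposited values are counts, whole numbers for each gene symbol and not scaled between libraries; the submitters' processing notes name STAR and mm10 without version or role. No source used here names the counting tool, strand setting or barcode collapsing, so intervals and floors cover counting error only.

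Samples were grouped by the labels. After filterByExpr (minimum count 10), 6 group means were fitted over 18 libraries with edgeR 4.0.16 in R 4.3.3 (TMM scaling, quasi-likelihood test, Benjamini-Hochberg adjustment over 1916 genes, threshold 0.05). Standard errors are the absolute log2 difference divided by the square root of F. The members and all gene lists were chosen with earlier results of these data known. Beside all members and Ptprc, the genes named are up to 4 called genes per list and comparison and the 3 genes most like each tested member, and 1 gene that this rule gives is not reported here. Ligands with most counts, Jund and Rps10 among the like genes, and the overlapping genes Vamp1, Gm16008, Camta1, Gm49339 and Gm40645 were singled out after their values were seen.

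Alternatives were DESeq2 1.42.0 (size factors, and its Wald test), no filter, a filter of 10 counts in 3 libraries, a fit restricted to the libraries compared, the replicate number as a block, and each library left out in turn. Fits without Rn45s and Rn4.5s, and with Lilrb4a and Lilr4b summed, were added after the data were seen. Of marker lists not given with the results, the highest sums in any library were 33.7 CPM for B cells, 17.6 for NK cells and ILC1, 41.6 for dendritic cells, 53.5 for mast cells and basophils, 95.3 for blood progenitors, 193.6 for erythroid cells and platelets and 83.4 for lung epithelium, endothelium and stroma.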

Additional observations from a re-analysis of the deposited data

Results flagged for a closer look

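The CD45 effect (log2, CD45 KO minus control) differed between lung and marrow ILC2 in the test of the difference itself for 2 members and 1 gene acting downstream of them. The difference of effects was 0.998 for Icos, 1.10 for Tnfrsf18 and 1.59 for Birc3 (edgeR's quasi-likelihood test, adjusted p = 0.0158, 0.0202 and 0.0202). In each, the CD45 KO estimate was above control in lung and below control in both marrow stages, and of the effects within a population the Icos effect in lung alone passed the threshold (adjusted p = 0.0861 in lung for Tnfrsf18 and 0.301 for Birc3). With 1 library left out the adjusted p reached 0.0684, 0.121 and 0.0980, and with no filter on low counts it was 0.238, 0.278 and 0.238. Lung and marrow libraries also differed in genes of the X and Y chromosomes, so tissue and the sex of the mice cannot be told apart in these 3 differences.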

How the results depend on the processing

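Of 677 recomputed values of single genes, 594 kept direction and side of the threshold, 71 lost the call, 3 gained it and 9 changed sign. The sign changes were all in values that were not called: with 1 library left out, the log2 difference between CD45 KO and control ranged from -0.28 to 0.49 for Cd27 and from -0.080 to 0.45 for Lilrb4a in mature ILC2, from -0.11 to 0.54 for Cd27 and from -0.27 to 0.41 for Lilrb4a in immature ILC2, and that between lung and marrow of CD45 KO mice from -0.064 to 0.28 for Lilrb4a; with Lilr4b summed in, it was -0.15 for Lilrb4a in immature ILC2. The cause of these changes was not tested. With no filter on low counts, 12945 genes shared the adjustment and the fit itself changed, and which of these moved the calls was not tested. Members called fell to 0 in lung (CD45 KO against control) and 0 for the difference of effects between lung and marrow. Genes called were 22 in lung, 9 for that difference and 4 for stage in controls, and rose to 621 and 683 for lung against marrow in CD45 KO mice and controls. The Wald test of DESeq2 called 1 member in lung, 2 in lung against marrow of controls and 1 for the difference of effects, where it gave no adjusted p for 3, 0 and 4 members; genes called were 1 in mature, 10 in immature ILC2 and 3 for stage in CD45 KO mice. A fit of only the libraries compared, with fewer samples, called 1 gene in mature ILC2 and 2 for stage in controls. With 1 library left out, genes called ranged from 3 to 14 in mature, 13 to 25 in immature and 27 to 37 in lung ILC2, 446 to 525 and 497 to 579 for lung against marrow in CD45 KO mice and controls, 7 to 20 and 1 to 1 for stage, 8 to 35 for the difference of effects between tissues and 0 to 0 between stages; members called ranged from 0 to 2 in lung, 3 to 3 and 2 to 5 for lung against marrow, 0 to 2 for the difference of effects and 0 to 0 elsewhere.

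Over 45 pairs of libraries with the same replicate number, deviations from group means correlated at -0.0888 to 0.0755. For 90 pairs with different numbers the range was -0.082 to 0.122, and 3 of 18 libraries correlated best with their own number. These pairs mix tissues and genotypes. Pairs of mature and immature ILC2 of the same genotype, which could come from the same mice, were not looked at apart. Whether libraries with the same number share mice was therefore not tested. With the replicate number as a block, genes called were 44 in lung, 6 in mature and 30 in immature ILC2, and the Lilrb4a call in lung was lost (adjusted p = 0.0509), which left 2 members called.

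The 3 counts that a count of 0 allows equal 25.3 to 44.7 CPM in a single library, and 4.77 CPM over the 6 CD45 KO and 5.91 CPM over the 6 control marrow libraries together, which limits what can be said of members at 0 counts.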
